A study of Mus musculus with 9 samples.

Results

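Nos2, the gene of inducible nitric oxide synthase, was examined together with 7 genes whose products act beside it in inflammation: the prostaglandin genes Ptgs1, Ptgs2, Ptges and Ptgis, and the acute-phase genes Lcn2, Saa3 and Hp. The 8 genes were taken by name from the 24341 genes measured, and all 8 were found. The set was chosen by the measured rise of Nos2 in Sirt6-/- against WT, which is among the largest of all genes. The differences between Sirt6-/- and the other groups are therefore given as a description for these 8 genes, with no p-value and no count of genes passing a test. The rule for that choice did not use the Atm-/- against WT comparison, which was tested, but its WT samples are the same as in the Sirt6-/- comparison. The 8 genes were also chosen with earlier results of these data known, so that test is not fully independent of the choice.

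The data are RNA-Seq profiles of mouse embryonic fibroblasts (MEFs), cells grown out of mouse embryos, with 3 samples labelled WT, 3 labelled Atm-/- and 3 labelled Sirt6-/-. ATM is a kinase of the DNA damage response, SIRT6 is a chromatin deacylase, and the study asked how both bear on metabolism in senescent cells. All 9 samples carry the strain label C57BL/6 and came from cells kept in DMEM with serum, with no treatment named. The labels name WT, Sirt6-/-, P53-/- and Atm-/-P53-/- mice as sources of MEFs without tying a source to a sample. According to the methods, MEFs lacking both Atm and p53 and MEFs lacking Sirt6 were gifts of separate laboratories, with the word immortalized written before both, and which cells went into sequencing is not said. An effect of Atm therefore cannot be told apart from an effect of p53 loss, and neither knockout's effect from that of the origin of its cells. Nothing states that the 3 samples of a group came from separate embryos or cultures, so p-values measure only the spread between these samples, which may be technical.

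NOS2 makes nitric oxide from arginine and is normally silent until cytokines or bacterial products switch it on. Prostaglandins arise in steps: phospholipases release arachidonic acid, the cyclooxygenases PTGS1 (COX-1, mostly constant) and PTGS2 (COX-2, inducible) turn it into prostaglandin H2, and terminal enzymes such as PTGES and PTGIS convert that into prostaglandin E2 and prostacyclin. LCN2 binds iron-loaded siderophores, SAA3 is a serum amyloid A made largely outside the liver in mice, and HP (haptoglobin) captures free haemoglobin. Several of these genes, Nos2, Ptgs2, Lcn2 and Saa3 among them, are known targets of NF-kB and C/EBP factors.

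Each sample held between 32187040 and 33837949 counted reads, and 3 reads, taken as the floor for counting error only, corresponded to 0.0887 to 0.0932 CPM (reads of a gene relative to all counted reads, on the usual CPM scale). Counts of the 3 samples of a group correlated across genes with r of 0.995 to 0.997, and samples of different groups with r of 0.811 to 0.889. Sirt6 had 4, 5 and 7 reads in Sirt6-/- MEFs against 402 to 487 in WT. Atm reads were higher in the samples labelled Atm-/- (3443 to 3768) than in WT (1536 to 1627), and gene counts do not show which exons they came from, so this gene does not check that label. Trp53 had 806 to 946 reads in Atm-/- MEFs against 6563 to 7108 in WT and 9081 to 9218 in Sirt6-/- MEFs, and no source named in the labels lacks both Sirt6 and p53. Of 13283 genes tested, 9080 (68.4%) passed an adjusted p of 0.05 between Atm-/- and WT, 4611 higher and 4469 lower. With library totals in place of TMM scaling the split was 6156 higher and 3326 lower, and the median gene shifted by 0.16 on the log2 scale.

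Of 12 fibroblast markers, 10 or 11 reached 1 CPM in each group, although their summed level was lower in Sirt6-/- MEFs (21020 to 21415 CPM) and Atm-/- MEFs (9408 to 9641 CPM) than in WT (29244 to 32282 CPM). Single fibroblast markers went both ways in Sirt6-/- MEFs. Col1a1 (8665 CPM in WT, 2377 CPM in Sirt6-/-), Fn1 (8977 and 3666 CPM), Col3a1, Col5a1, Pdgfra, Vim and Thy1 were lower. Col1a2 (4729 and 7803 CPM), S100a4 (467 and 1445 CPM), Pdgfrb and Dcn were higher. In Atm-/- MEFs Thy1 was higher (87.3 CPM, WT 24.4 CPM) and the other listed markers were lower. Lum had at most 10 reads in any sample, and Thy1 had 1, 33 and 12 reads in Sirt6-/- MEFs. The summed level of 12 macrophage markers was 21.4 to 24.0 CPM in WT, 22.9 to 27.9 CPM in Sirt6-/- and 24.2 to 27.1 CPM in Atm-/- MEFs, with at most 6 reads of Ptprc and 4 of Emr1 in any sample. In each group 4 of these markers reached 1 CPM, and single markers moved in opposite ways under the similar sums. Cd14 went from 5.97 CPM in WT to 15.9 CPM in Sirt6-/- and 16.0 CPM in Atm-/-. Csf1r went from 7.71 CPM in WT to 2.12 CPM in Sirt6-/- and 0.716 CPM in Atm-/-. The 9 neutrophil markers in the files summed to at most 1.76 CPM, with Elane and Retnlg at 0 in all 9 samples, while Camp had 26, 44 and 38 reads in Sirt6-/- MEFs and at most 2 elsewhere, and S100a8 had 12 to 26 in Atm-/- MEFs against 1 to 6 in WT. Hepatocyte markers, which would mark the main source of acute-phase proteins in the body, summed to at most 1.08 CPM. Epithelial markers summed to 22.7 to 30.1 CPM in WT and Sirt6-/- and to 91.0 to 98.4 CPM in Atm-/-. The higher Atm-/- sum came mostly from Krt19 (2.13 CPM in WT, 46 CPM in Atm-/-) and Krt18 (7.21 and 28.2 CPM). Cdh1 rose there by 0.84 (SE 0.19) on the log2 scale. Epcam, Krt8, Krt14, Cldn4 and Cldn7 did not pass between Atm-/- and WT, and Krt5 had at most 10 reads in any sample. Endothelial markers summed to at most 12.7 CPM. Adipocyte markers summed to 136 to 211 CPM in WT, 83.8 to 94.6 CPM in Atm-/- and 15.6 to 20.1 CPM in Sirt6-/- MEFs. Plin1 and Cfd were at 0 in all 9 samples. The lower adipocyte sums came from Lpl, at 167 CPM in WT, 69.6 CPM in Atm-/- and 0.632 CPM in Sirt6-/-. Fabp4 (5.64, 14.9 and 15.7 CPM in the same order) and Pparg (0.106, 4.61 and 1.16 CPM) were higher in both knockouts. The part of these marker differences in the results was not tested.

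Nos2 was almost silent outside Sirt6-/- MEFs. WT samples had 19, 13 and 6 Nos2 reads, Atm-/- samples 17, 8 and 8, and Sirt6-/- samples 9503, 9647 and 11102. Thus the lowest Sirt6-/- sample lay far above the highest of the other 6, while WT and Atm-/- samples overlapped. The normalized level was 0.401 ± 0.203 CPM (SD, n = 3) in WT, 0.318 ± 0.149 CPM in Atm-/- and 307 ± 22.3 CPM in Sirt6-/-, a 760-fold higher level in Sirt6-/- than in WT (log2 fold change 9.57, SE 0.13). Between Atm-/- and WT the log2 difference was -0.34 (SE 0.55, adjusted p = 0.601). Because WT and Atm-/- levels rest on a few reads, the size of the Nos2 fold is less exact than its direction. In these bulk samples, fewer cells expressing a gene and less RNA per cell cannot be told apart.

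**Figure D1:**
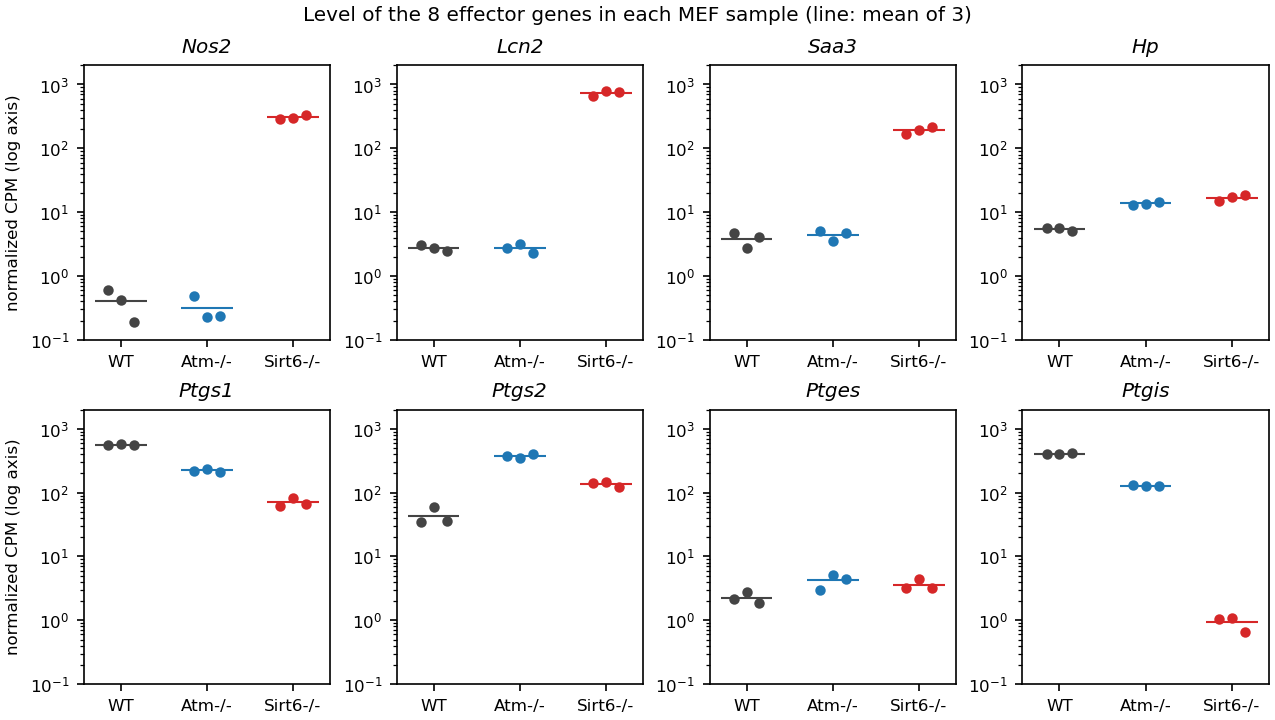
Normalized CPM on a log axis (vertical) of each of the 8 genes in the 3 WT, 3 Atm-/- and 3 Sirt6-/- samples (horizontal). Each point is a sample and each line the mean of 3. Nos2, Lcn2 and Saa3 stand apart in the Sirt6-/- samples, at means of 307, 741 and 192 CPM, while Ptgis falls there to 0.928 CPM.

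Nos2 lies on chromosome 11 (GRCm38, 11:78920787-78960254, plus strand). Its nearest neighbour in the files, Lgals9, lies on the minus strand with its 3′ end 2.72 kb from that of Nos2, encodes the lectin galectin-9, and moved the opposite way. Lgals9 stood at 150 ± 15.3 CPM in WT, 29.9 ± 0.540 CPM in Sirt6-/- and 40.8 ± 4.40 CPM in Atm-/- MEFs, and fell in both (log2 fold change -2.32, SE 0.07, adjusted p = 5.55e-13 in Sirt6-/-, and -1.88, SE 0.08, adjusted p = 6.42e-11 in Atm-/-). Nlk, which encodes a serine/threonine kinase, and Ksr1, a scaffold of the RAS pathway, fell in Sirt6-/- by 0.91 (SE 0.08) and 1.02 (SE 0.08) on the log2 scale, and Lyrm9 rose by 0.93 (SE 0.18). None of the 4 neighbours rose on the scale of Nos2.

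Lcn2 and Saa3 rose beside Nos2 in the same samples. Lcn2 had 96, 85 and 79 reads in WT, 94, 110 and 79 in Atm-/-, and 21882, 25887 and 25083 in Sirt6-/- MEFs. Its normalized level was 2.74 ± 0.253 CPM in WT, 2.73 ± 0.404 CPM in Atm-/- and 741 ± 65.0 CPM in Sirt6-/-, which made it 270-fold higher in Sirt6-/- than in WT (log2 fold change 8.08, SE 0.09). WT and Atm-/- samples overlapped, with a log2 difference of -0.02 (SE 0.21, adjusted p = 0.952). Saa3 had 152, 87 and 127 reads in WT, 175, 124 and 161 in Atm-/-, and 5485, 6304 and 7098 in Sirt6-/-. Here too only the Sirt6-/- samples were high, 49.7-fold above WT (log2 fold change 5.63, SE 0.13), and Atm-/- overlapped with WT (log2 difference 0.20, SE 0.22, adjusted p = 0.442).

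Hp, the haptoglobin gene, differed from both in that it was higher in each knockout. Its reads were 183, 174 and 161 in WT, 454, 473 and 492 in Atm-/-, and 485, 555 and 626 in Sirt6-/-. Neither knockout overlapped with WT. The level went from 5.47 ± 0.324 CPM in WT to 13.7 ± 0.740 CPM in Atm-/-, a rise of 1.32 on the log2 scale (SE 0.12, adjusted p = 2.08e-07), and to 16.9 ± 1.96 CPM in Sirt6-/- (log2 fold change 1.63, SE 0.13). Set directly against each other, Sirt6-/- lay above Atm-/- by 0.30 (SE 0.10) on the log2 scale, a difference that shrank to 0.22 without Sirt6-/- replicate 3.

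The sequences before the RefSeq starts of Lcn2, Saa3 and Ptgs2 are shown because these inducible members each held a match to a C/EBP motif. RefSeq windows of 250 bases upstream (GRCm38.p6) were at hand for 5 of the 8 genes, namely Lcn2, Saa3, Ptgs2, Ptgs1 and Ptges. Both strands were searched for TTGCNNAA, which 9.56% of all 32851 such windows held and 3 of these 5 held. An NF-kB motif, GGGA and CC with any 4 bases between, was in 17.6% of all windows and in none of the 5, which says only that these letters are not in these windows. The sequences run 5′ to 3′ on the gene's strand, with the match in capitals, and stop where a UTR is annotated: Lcn2 at 2:32387798-32387989 (minus), Saa3 at 7:46715701-46715926 (minus) and Ptgs2 at 1:150099781-150100030 (plus).
Lcn2: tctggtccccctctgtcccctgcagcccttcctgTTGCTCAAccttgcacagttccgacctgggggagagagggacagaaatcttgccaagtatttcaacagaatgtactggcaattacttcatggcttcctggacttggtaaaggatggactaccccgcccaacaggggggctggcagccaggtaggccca
Saa3: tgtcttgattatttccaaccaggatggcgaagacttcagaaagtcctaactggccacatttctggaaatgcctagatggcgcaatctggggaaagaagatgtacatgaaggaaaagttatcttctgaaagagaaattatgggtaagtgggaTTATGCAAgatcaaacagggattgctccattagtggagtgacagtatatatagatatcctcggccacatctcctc
Ptgs2: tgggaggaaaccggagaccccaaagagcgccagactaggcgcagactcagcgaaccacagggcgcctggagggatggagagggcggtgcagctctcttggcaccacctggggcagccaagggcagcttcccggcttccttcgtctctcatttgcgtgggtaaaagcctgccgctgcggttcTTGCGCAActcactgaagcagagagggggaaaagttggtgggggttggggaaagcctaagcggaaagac
The first matched base lay 216 bases before the RefSeq start of Lcn2, 99 before that of Saa3 and 69 before that of Ptgs2. GENCODE, whose gene spans are given with the positions of the 8 genes, lets Lcn2 begin further upstream, so that the Lcn2 window lies inside its GENCODE span. The Saa3 match is to the motif read on the other strand. A match describes these letters and is not evidence of a bound site.

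The cyclooxygenase genes moved in opposite directions in both knockouts. Ptgs1, the constant form, had 17905, 17898 and 17693 reads in WT, 7638, 8264 and 7146 in Atm-/-, and 2009, 2674 and 2219 in Sirt6-/-. The 3 groups did not overlap. From 565 ± 6.10 CPM in WT, Ptgs1 fell to 222 ± 12.6 CPM in Atm-/- (log2 fold change -1.35, SE 0.05, adjusted p = 3.96e-12), and Sirt6-/- stood at 70.3 ± 11 CPM (log2 fold change -3.01, SE 0.08), 8.04-fold below WT.

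Ptgs2, the inducible form, had 1088, 1853 and 1113 reads in WT, 13129, 12066 and 13485 in Atm-/-, and 4628, 4821 and 4057 in Sirt6-/-. Again no groups overlapped, but here Atm-/- was the highest, and WT replicate 2 stood above the other WT samples. Ptgs2 rose from 42.9 ± 14.2 CPM in WT to 374 ± 27.3 CPM in Atm-/-, which is 8.67-fold (log2 fold change 3.12, SE 0.15, adjusted p = 1.83e-10). Sirt6-/- stood at 138 ± 14.2 CPM, 3.21-fold above WT (log2 fold change 1.68, SE 0.15) and 1.45 below Atm-/- on the log2 scale (log2 difference -1.45, SE 0.06).

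Set against each other per transcript length, as RPKM, Ptgs2 made up 4.03%, 6.68% and 4.17% of the summed Ptgs1 and Ptgs2 level in WT, 54.3%, 50.2% and 56.6% in Atm-/-, and 61.4%, 55.5% and 55.8% in Sirt6-/-. Both knockouts thus had more Ptgs2 than Ptgs1, where WT had mostly Ptgs1. The Atm-/- share exceeded the WT share by 48.8 percentage points (exact permutation test, two-sided, p = 0.1, the smallest that 3 against 3 samples allow). The sum of both levels was 196 ± 5.0 RPKM in WT, 176 ± 2.14 RPKM in Atm-/- and 57.8 ± 6.44 RPKM in Sirt6-/- MEFs.

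**Figure D2:**
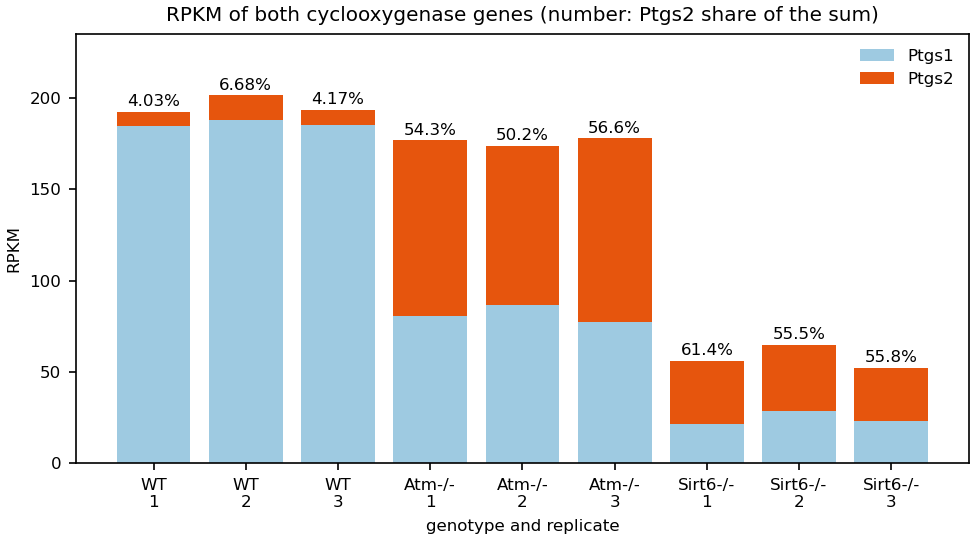
RPKM of Ptgs1 and Ptgs2 in each of the 9 samples, by genotype, with both genes on the same linear axis. In WT the level is mostly Ptgs1, while Ptgs2 makes up 53.7% ± 3.23 of the sum in Atm-/- and 57.6% ± 3.34 in Sirt6-/- MEFs, where the sum itself is 57.8 RPKM.

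The terminal enzymes differed as well. Ptgis, the prostacyclin synthase gene, had 12905, 12482 and 13233 reads in WT, 4515, 4452 and 4350 in Atm-/-, and 34, 35 and 22 in Sirt6-/-. The groups lay in that order with no overlap. Ptgis fell 3.19-fold in Atm-/- (log2 fold change -1.67, SE 0.04, adjusted p = 1.78e-13) and was 438-fold lower in Sirt6-/- than in WT (log2 fold change -8.78, SE 0.09), at 408 ± 10.9, 129 ± 1.58 and 0.928 ± 0.233 CPM in WT, Atm-/- and Sirt6-/- MEFs. Ptges, the inducible prostaglandin E synthase gene, was low throughout. It had 68, 88 and 58 reads in WT, 105, 181 and 151 in Atm-/-, and 104, 146 and 107 in Sirt6-/-. Both knockouts lay above WT without overlap, and overlapped with each other. Ptges rose by 0.89 on the log2 scale in Atm-/- (SE 0.24, adjusted p = 0.00474), and Sirt6-/- was 0.69 (SE 0.24) above WT.

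In all, 5 of the 8 genes passed the test between Atm-/- and WT, where 68.4% of all genes tested did. Ptgs2, Ptges and Hp rose, Ptgs1 and Ptgis fell, and Nos2, Lcn2 and Saa3 did not pass. The same 5 genes had samples that did not overlap between the groups, against 72.6% of all genes tested. The median of the 8 log2 fold changes was 0.09, beside 0.02 over all genes tested. Between Sirt6-/- and WT 6 of the 8 were higher and 2 lower, all without overlap between groups, where 79.0% of 13206 genes did not overlap. Nothing is read from that count, since the comparison was used in choosing Nos2. A log2 rise of at least 5, which Nos2, Lcn2 and Saa3 reached in Sirt6-/-, was found in 2.88% of genes tested there. Nothing is read from that share either, since the rise of Nos2 in this comparison chose the set. Between Sirt6-/- and Atm-/- 7 of the 8 did not overlap, 4 higher and 3 lower, where 78.2% of genes did not, and Ptges was the exception. The Sirt6-/- samples enter this comparison too, so it is likewise only a description.

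**Figure D3:**
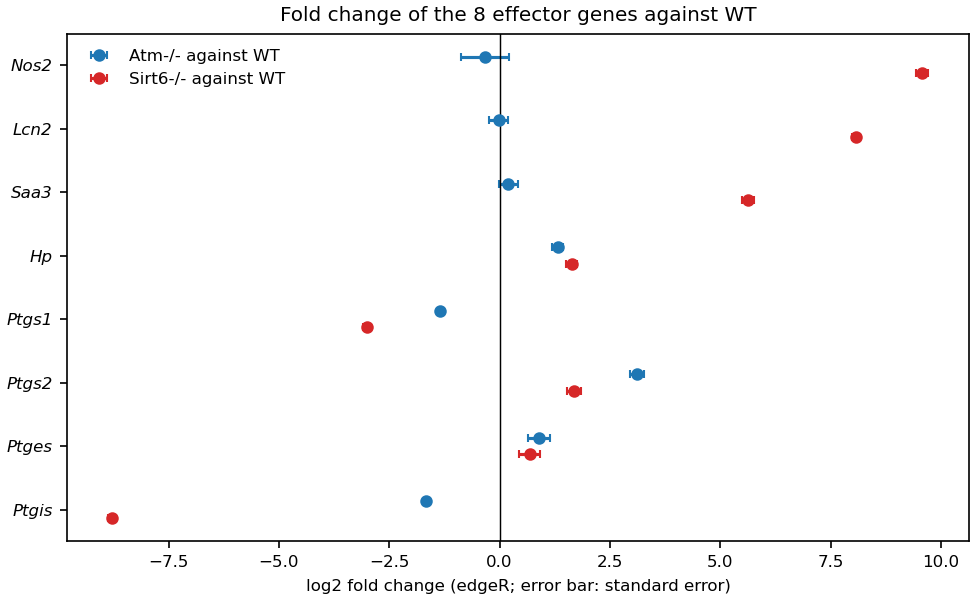
Log2 fold change (horizontal, error bars are the standard error) of the 8 genes in Atm-/- against WT and Sirt6-/- against WT. Nos2, Lcn2 and Saa3 sit near 0 in Atm-/- and at 9.57, 8.08 and 5.63 in Sirt6-/-, and Ptgs2 is higher in Atm-/- (3.12) than in Sirt6-/- (1.68).

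Per transcript length the order of the 8 genes turned over between genotypes. In WT the highest were Ptgis (220 ± 6.39 RPKM) and Ptgs1 (186 ± 1.81 RPKM), followed at a distance by Ptgs2 (9.75 ± 3.21 RPKM) and Saa3 (6.85 ± 1.78 RPKM), whose samples overlapped. Nos2 was the lowest in WT, at 0.0946 ± 0.0478 RPKM. In Atm-/- MEFs Ptgs2 led (94.7 ± 6.81 RPKM), ahead of Ptgs1 (81.5 ± 4.68 RPKM) and Ptgis (77.1 ± 0.977 RPKM), and the latter pair overlapped. In Sirt6-/- MEFs the order was Lcn2 (870 ± 73.9 RPKM), Saa3 (362 ± 40.3 RPKM), Nos2 (77.2 ± 5.15 RPKM), Ptgs2, Ptgs1, Hp, Ptges and, last, Ptgis (0.532 ± 0.136 RPKM), with no overlap between neighbours. The gene that was highest in WT was thus the lowest in Sirt6-/-.

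The spread within groups differed between members. For Nos2 the coefficient of variation (SD as a percentage of the mean) was 50.7% in WT and 46.8% in Atm-/-, but 7.24% in Sirt6-/- MEFs. The reverse held for Ptgis, at 2.67% in WT, 1.23% in Atm-/- and 25.1% in Sirt6-/-. Ptgs2 varied by 33.0% in WT, at 1088 to 1853 reads, and by 7.29% in Atm-/- and 10.3% in Sirt6-/-. Ptges varied by 20.8% to 25.8% in each group, and had the largest standard error of the 5 members that passed in Atm-/-.

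Of the 8 genes 4 lie on chromosome 2, but not side by side. In GRCm38 these are Ptges (2:30889471-30929863, minus strand), Lcn2 (2:32384633-32388252, minus), Ptgs1 (2:36230426-36252272, plus) and Ptgis (2:167191805-167240604, minus). Ptgs2 is at 1:150100031-150108227 (plus), Saa3 at 7:46711998-46715700 (minus) and Hp at 8:109575128-109579172 (minus). Annotated genes of other names overlap Ptgs1, Ptges and Ptgis, and none of them has a row of its own in the files. Lcn2 sits 7.64 kb from Ptges2, a further prostaglandin E synthase gene, which was lower in Sirt6-/- (log2 fold change -0.46, SE 0.08, adjusted p = 0.000112). Its other neighbours also moved little beside it, Ciz1 by 0.31 (SE 0.06) and 1110008P14Rik by 0.75 (SE 0.09) upward, and Slc25a25 by -0.91 (SE 0.07). Next to Saa3, Saal1 was 0.57 (SE 0.11) higher in Sirt6-/-. By contrast the serum amyloid genes Saa4 (6, 8 and 13 reads) and Saa1 (9, 3 and 21 reads) had reads in Sirt6-/- MEFs and none in the other 6 samples, and Tph1 had almost none anywhere.

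Genes with a profile like that of Nos2 were sought among 12162 genes with a mean of at least 1 CPM. Likeness was the mean absolute difference over the 9 samples between log2 CPM values, each centred on the gene's own mean. Lcn2 was the third closest of all, at 0.65. The closest were Igfbp2, an insulin-like growth factor binding protein gene, at 0.47 (2.03 ± 0.180 CPM in WT, 2.0 ± 0.370 in Atm-/- and 811 ± 28.3 in Sirt6-/-), and Vit, which encodes the matrix protein vitrin, at 0.55. Behind Lcn2 came Col2a1, the cartilage collagen gene, at 0.66, and Ppbp, a CXC chemokine gene, at 0.94 (23.1 ± 1.41 CPM in WT and 3823 ± 206 in Sirt6-/-). Saa3 ranked 41 at 1.75 and Hp 1698 at 3.78. At the far end Ptgis ranked 12155. Since there are 3 groups of 3, this order mostly reflects the difference between Sirt6-/- and the other MEFs.

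**Figure D4:**
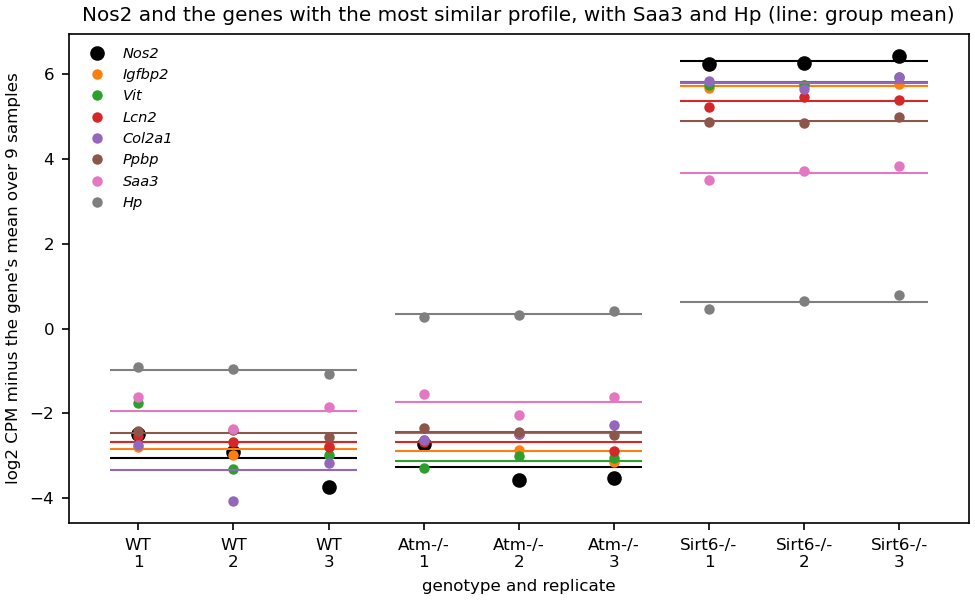
Log2 CPM minus each gene's mean over the 9 samples (vertical) for Nos2, its 5 closest genes, Saa3 and Hp, by sample (horizontal). Points are samples and lines group means. The first 6 genes are low in WT and Atm-/- and high in Sirt6-/-, with Saa3 rising less and Hp least.

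The nitric oxide pathway around Nos2 changed at the arginine supply. Slc7a2, which encodes the arginine carrier CAT-2, had 1237, 1269 and 1277 reads in WT, 1031, 1032 and 1006 in Atm-/-, and 29703, 31066 and 29978 in Sirt6-/- MEFs. Only the Sirt6-/- samples were high, and Slc7a2 rose there by 4.53 on the log2 scale (SE 0.05, adjusted p = 2.04e-17) and fell by 0.44 in Atm-/- (SE 0.07, adjusted p = 3.50e-05). Slc7a1, the more general arginine carrier CAT-1, fell in both, by 1.38 (SE 0.06) in Sirt6-/- and by 0.74 (SE 0.05) in Atm-/-. Ass1, which recycles citrulline towards arginine, rose by 0.38 (SE 0.05) in Sirt6-/- and fell by 0.71 (SE 0.07) in Atm-/-. Asl, the next enzyme of that recycling, fell by 0.47 (SE 0.09) in Sirt6-/-, and in Atm-/- its log2 difference was -0.16 (SE 0.09, adjusted p = 0.122). Arg2, a mitochondrial arginase that uses the same arginine, went from 3 to 7 reads in WT to 39 to 66 in Sirt6-/- and 73 to 84 in Atm-/- (log2 fold changes 3.42, SE 0.46, and 3.81, SE 0.39).

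The cofactor and signalling steps did not follow the same direction. Gch1, the first enzyme of tetrahydrobiopterin synthesis, a cofactor that NOS2 needs, fell by 1.58 (SE 0.17, adjusted p = 6.24e-07) in Sirt6-/- and by 0.82 (SE 0.12, adjusted p = 3.30e-05) in Atm-/-, and Spr, a later enzyme of that route, fell by 1.28 (SE 0.07) and 0.55 (SE 0.06). The route did not fall as a whole. Pts, a further enzyme of it, rose by 0.48 (SE 0.12) in Sirt6-/- and fell by 0.54 (SE 0.15) in Atm-/-. Qdpr, which recycles the cofactor, rose by 0.34 (SE 0.07) in Sirt6-/- and by 0.59 (SE 0.07) in Atm-/-. Gchfr, which encodes a regulator of GCH1, rose by 1.41 (SE 0.13) and 0.80 (SE 0.14). Ddah1, which breaks down a methylarginine inhibitor of nitric oxide synthases, fell by 1.5 (SE 0.05) and 1.16 (SE 0.08). Ddah2, the other listed gene of that family, went the other way and rose by 0.75 (SE 0.10) in Sirt6-/- and 0.54 (SE 0.07) in Atm-/-. Nos1ap, an adaptor of neuronal nitric oxide synthase, fell from 321 to 362 reads in WT to 0 to 9 in Sirt6-/- and 47 to 76 in Atm-/-. The other synthases were at most at 4 reads (Nos1) and 17 reads (Nos3). The genes of the nitric oxide receptor, Gucy1a3 and Gucy1b3, had at most 2 reads in any sample. Downstream of that receptor Prkg1, a cGMP-dependent kinase gene, and Pde5a, which breaks down cGMP, rose in Sirt6-/- by 2.75 (SE 0.15) and 3.77 (SE 0.18), and in Atm-/- by 0.74 (SE 0.22) and 1.84 (SE 0.24). Of 22 listed pathway genes 16 were tested. Arg2 in both knockouts and Nos1ap in Sirt6-/- passed the expression filter only through the group where they were high. In Sirt6-/- 10 rose and 6 fell, and in Atm-/- 7 rose, 8 fell and 1 did not pass, with medians of 0.36 and -0.30 beside 0.02 over all genes, of which 76.6% and 68.4% passed.

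The prostanoid pathway was followed from arachidonic acid release to transport and receptors. Pla2g4a, the phospholipase that releases arachidonic acid, rose slightly in Atm-/- (log2 fold change 0.44, SE 0.06, adjusted p = 1.85e-05), and in Sirt6-/- its log2 difference was -0.04 (SE 0.06, adjusted p = 0.564). Mgll, which encodes a monoacylglycerol lipase that also frees arachidonic acid, had 4871, 3182 and 4718 reads in WT, 64, 83 and 99 in Sirt6-/- and 77, 55 and 40 in Atm-/-, and fell by 5.75 (SE 0.17) and 6.35 (SE 0.19) on the log2 scale. Slco2a1, the prostaglandin uptake carrier, rose by 3.12 (SE 0.12) in Sirt6-/- and 4.62 (SE 0.08) in Atm-/-, and Abcc4, an exporter, rose by 1.5 (SE 0.08) in Atm-/- and by 0.25 (SE 0.08) in Sirt6-/-, where it did not pass without WT replicate 3 (log2 fold change 0.20, adjusted p = 0.07). The reads of Hpgd, which inactivates prostaglandins, were at most 12, and those of the thromboxane synthase gene Tbxas1 at most 10.

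Receptor genes split by genotype. Ptgfr, the prostaglandin F receptor, had 0, 2 and 0 reads in WT, 264, 356 and 339 in Sirt6-/- and 125, 151 and 100 in Atm-/- MEFs, and no group overlapped with another. Ptger3, a prostaglandin E2 receptor, had 126, 175 and 208 reads in Atm-/-, none in WT and 0, 0 and 2 in Sirt6-/-, at least 51.8-fold higher in Atm-/- than the floor of 3 reads per library in WT. Ptger2 had 50, 61 and 69 reads in Atm-/- and none in WT, at least 18.3-fold higher. Ptger4, which also binds prostaglandin E2, fell in Sirt6-/- by 1.43 (SE 0.12, adjusted p = 4.55e-08), and in Atm-/- its log2 difference was -0.11 (SE 0.10, adjusted p = 0.333). Ptgir, the receptor for the prostacyclin that PTGIS makes, rose by 1.96 (SE 0.20) in Sirt6-/- and fell by 1.51 (SE 0.33) in Atm-/-. Of 32 listed pathway genes, 11 rose, 7 fell and 5 did not pass among 23 tested in Atm-/-, and 8 rose, 9 fell and 5 did not pass among 22 tested in Sirt6-/-. Of all genes 68.4% and 76.6% passed in these comparisons. The medians were 0.34 and 0.11, beside 0.02 over all genes in either comparison. Ptgfr in both knockouts, Fam213b in Sirt6-/-, and Ptger2 and Ptger3 in Atm-/- rose and passed the expression filter only through the knockout reads. Ptgds and Tbxa2r fell in both knockouts and passed it only through the WT reads. The direction of these rises and falls was thus fixed by the filter.

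The acute-phase genes beyond Lcn2, Saa3 and Hp rose in larger number in Sirt6-/- than they fell. Serpina3n, a secreted protease inhibitor of the acute phase, had 2, 6 and 13 reads in WT, 129, 217 and 154 in Atm-/-, and 1609, 1855 and 2021 in Sirt6-/-, and rose in both (log2 fold changes 7.95, SE 0.21, in Sirt6-/- and 4.41, SE 0.40, in Atm-/-). Cp, the copper-carrying ferroxidase ceruloplasmin, had 1063, 760 and 940 reads in WT, 4299, 4568 and 4213 in Atm-/- and 35332, 41587 and 38019 in Sirt6-/- (log2 fold changes 2.11, SE 0.09, and 5.33, SE 0.10). For both genes Sirt6-/- was the highest group and WT the lowest, without overlap. Steap4, a metal reductase, rose by 7.38 (SE 0.13) in Sirt6-/-, and in Atm-/- its log2 difference was 0.27 (SE 0.41, adjusted p = 0.576). Saa2 had 37, 57 and 61 reads in Sirt6-/- MEFs and none in the other 6 samples, at least 16.6-fold higher than the floor. C3, the central complement protein, rose in Sirt6-/- by 1.75 (SE 0.11) and fell in Atm-/- by 1.45 (SE 0.11). The C-reactive protein gene Crp, the fibrinogen genes Fga, Fgb and Fgg, Apcs, Hamp, Lrg1 and Serpina1a had no read in any sample, and of these Fgb and Serpina1a are also among the hepatocyte markers.

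Partners of LCN2 and HP and the iron genes moved unevenly. Slc22a17, reported as a receptor of LCN2, rose by 2.39 (SE 0.19, adjusted p = 2.05e-08) in Sirt6-/-, and its log2 difference in Atm-/- was 0.17 (SE 0.25, adjusted p = 0.562). Lrp2 (megalin), a large uptake receptor that also takes up LCN2, fell by 1.21 (SE 0.16) in Sirt6-/- and by 1.26 (SE 0.13) in Atm-/-. Cd163, the receptor for haptoglobin bound to haemoglobin, had at most 2 reads. Tfrc, which encodes the transferrin receptor, fell by 1.27 (SE 0.05) in Sirt6-/-, and Fth1, the ferritin heavy chain gene, rose there by 1.21 (SE 0.05). Trf (transferrin) went in opposite directions, from 152 to 181 reads in WT to 9357 to 10445 in Atm-/- and 24 to 53 in Sirt6-/- (log2 fold changes 5.72, SE 0.07, and -2.28, SE 0.27). Of 30 listed genes, 11 rose, 4 fell and 1 did not pass among 16 tested in Sirt6-/-, and 8 rose, 3 fell and 4 did not pass among 15 in Atm-/-, with medians of 1.5 and 0.17. Of all genes tested, 39.2% rose and 37.4% fell in Sirt6-/-, and 34.7% rose and 33.6% fell in Atm-/-. These counts hold genes such as Saa2 and Serpina3n, nearly without reads in WT. Such genes passed the expression filter only through the knockout where they were high, which fixed their direction.

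Among the known inducers of Nos2, several cytokines that usually start it were nearly absent, but not all listed cytokines were. Ifng, Ifnb1 and Osm had no read in any sample, Tnf had at most 7 and Il1b at most 2. Il1a had 16 to 23 reads in Sirt6-/-, 0 to 12 in WT and 4 to 10 in Atm-/-. Its rise in Sirt6-/- (log2 fold change 1.92, SE 0.73) passed, but not when any Sirt6-/- sample was left out. Lif was present in each group, at 62.8 CPM in WT, 62.2 CPM in Sirt6-/- and 48.4 CPM in Atm-/-. Receptors and transcription factors of the same route were measured and mostly rose in Sirt6-/-. Tlr2, a receptor for bacterial lipoproteins, had 407, 314 and 404 reads in WT, 370, 327 and 324 in Atm-/-, and 9071, 9152 and 9569 in Sirt6-/- (log2 fold change 4.57, SE 0.08, adjusted p = 6.73e-16). Nfkb1, which encodes a subunit of NF-kB, had 3167, 3002 and 2955 reads in WT and 13455, 13352 and 13413 in Sirt6-/- (2.09, SE 0.05, adjusted p = 1.18e-14), with 3327, 3507 and 3283 in Atm-/-. In both genes the Sirt6-/- samples stood apart from the other 6. The NF-kB inhibitor gene Nfkbia rose by 1.79 (SE 0.08) and Nfkbiz, an NF-kB cofactor with Lcn2 among its known targets, by 1.38 (SE 0.08).

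Il6 and Cebpd separated the knockouts. Il6, the cytokine that drives the acute phase in liver, had 176, 280 and 178 reads in WT, 785, 948 and 729 in Sirt6-/- and 24, 15 and 12 in Atm-/-. It rose by 1.90 (SE 0.17, adjusted p = 7.95e-08) in Sirt6-/- and fell by 3.76 (SE 0.30, adjusted p = 3.89e-08) in Atm-/-. Cebpd, a C/EBP factor of the acute phase, went the same ways, with 1302, 1274 and 1255 reads in WT, 5886, 6731 and 6686 in Sirt6-/- and 449, 476 and 418 in Atm-/- (log2 fold changes 2.28, SE 0.06, and -1.65, SE 0.08). For both genes no groups overlapped. Cebpa, another factor of that family, was low but rose in both, by 2.35 (SE 0.34) and 2.67 (SE 0.33). Of 33 listed inducers and transcription factors, 17 rose, 2 fell and 8 did not pass among 27 tested in Sirt6-/-, where 39.2% of all genes rose and 37.4% fell. In Atm-/- 6 rose, 14 fell and 6 did not pass among 26, where 34.7% of all genes rose and 33.6% fell. The medians were 0.56 and -0.35. Il1a was among the genes tested in Sirt6-/- only through its reads there, which fixed its direction.

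**Figure D5:**
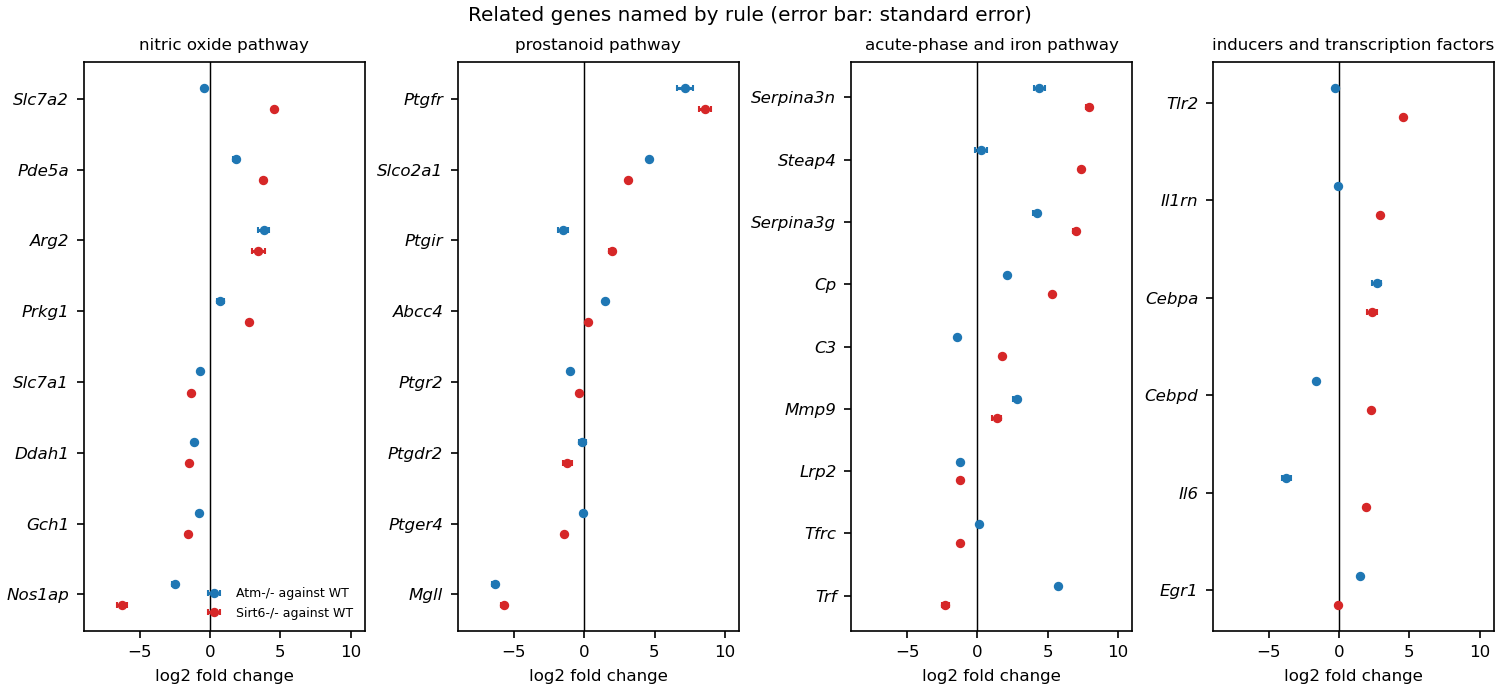
Log2 fold change against WT (horizontal, error bars are the standard error) in Atm-/- and Sirt6-/- MEFs of the pathway genes with the largest changes, in 4 panels by list. Ptger3 is left out because WT had no read, and a further gene is not shown. Slc7a2, Steap4, Tlr2, Cebpd and Il6 are higher in Sirt6-/- and near 0 or lower in Atm-/-, while Mgll and Nos1ap are lower in both.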

How the data were processed

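RNA-Seq libraries of oligo(dT)-selected mRNA from 9 MEF samples (3 WT, 3 Atm-/-, 3 Sirt6-/-) were analysed. The authors deposited whole-number read counts for 24341 genes per sample, and RPKM that they made from those counts with a listed transcript length. The build mm10 is named in the submitters' processing notes. The aligner, counting tool and use of strand are not given in the sources used here.

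Each pair of genotypes was fitted with edgeR 4.0.16 (R 4.3.3): filterByExpr, TMM scaling, the quasi-likelihood test with a prior count of 0.125, and Benjamini-Hochberg adjustment over all genes tested, with an adjusted p of 0.05 as threshold. A gene near 0 in a group passed that expression filter only through the group where it was high, so its direction was fixed in advance. Such genes are part of the counts of listed genes and of all genes. The fit was tested on simulated data first. Levels are CPM scaled by TMM over all 9 samples. RPKM served only to compare genes. Alternatives were DESeq2 1.42.0, the edgeR exact test, other scalings, filters and prior counts, a replicate block, and leaving out each sample.

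The 8 genes and the 4 pathway lists (117 genes, 3 of them found under a RefSeq synonym) were chosen with earlier results of these data known. Named from each list were at most the 4 largest rises and 4 largest falls per comparison with WT (adjusted p under 0.05, at least 2-fold, at least 1 CPM), genes acting directly on a member or its product, the 5 profiles closest to Nos2, and 2 neighbours on each side. A gene that this rule names is not reported here. Positions are from GENCODE M21 (GRCm38), and upstream windows from RefSeq (GRCm38.p6). Counts give relative levels, so a gene's value depends on the scaling.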

Additional observations from a re-analysis of the deposited data

How the results depend on the processing

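Counts of genes called, of members called in Atm-/- against WT and of listed pathway genes called stayed within 1.5 times the values reported under every alternative run. Genes called ranged from 7975 to 9482 for Atm-/- against WT, 8849 to 10559 for Sirt6-/- against WT and 9141 to 10690 for Sirt6-/- against Atm-/-. Between Atm-/- and WT, the 5 members that passed did so under each alternative, with Ptges the closest to the threshold (log2 fold change 0.73 to 1.09, largest adjusted p 0.0332). Nos2 and Lcn2, which did not pass there, changed sign in 5 settings without passing: Nos2 was 0.066 (adjusted p = 0.935) without WT replicate 1, and Lcn2 was 0.15 (adjusted p = 0.551) with library totals, 0.0062 (adjusted p = 0.980) with at least 10 counts in every sample, 0.057 (adjusted p = 0.853) without WT replicate 1 and 0.093 (adjusted p = 0.751) without Atm-/- replicate 3. Leaving out each sample in turn gave -0.78 to 0.066 for Nos2 and -0.12 to 0.093 for Lcn2. The cause was not tested. Nos2 could not be tested with at least 10 counts in every sample, since it lay under that filter. In Sirt6-/- against WT the log2 fold change of Nos2 was 9.23 to 9.96 and that of Ptges 0.50 to 0.86. In Sirt6-/- against Atm-/- that of Hp was 0.22 to 0.38. The excess of the Ptgs2 share in Atm-/- was 47.3 to 50.5 percentage points when each sample was left out and 55.6 with counts in place of RPKM.

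Samples with the same replicate number deviated together little, if at all (r between -0.0162 and 0.0889). With 3 samples per group this cannot show whether equal numbers share a preparation. Fitted with a replicate block, 8833, 10041 and 10157 genes were called in the 3 comparisons, and 5 members in Atm-/- against WT. Depth limits the Nos2 level in WT and Atm-/- and that of Ptgis in Sirt6-/- MEFs, which rest on 6 to 35 reads per sample.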
